A study of Mus musculus with 9 samples.

Results

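The genes described here are 33 fatty acid oxidation genes, named as a list and matched by symbol to the deposited table of raw read counts. All 33 were among the 29229 genes of the table. The list holds 4 genes of the carnitine shuttle, 5 long-chain acyl-CoA synthetases, 5 acyl-CoA dehydrogenases, 5 genes of the later steps of a round, 3 isomerases and reductases for unsaturated chains, 3 electron transfer genes, 4 peroxisomal genes, 3 transcriptional regulators and a fatty acid binding protein. Each gene was filed under a single one of these headings.

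Long-chain fatty acids are activated to acyl-CoA by acyl-CoA synthetases and carried into mitochondria by the carnitine shuttle, in which carnitine palmitoyltransferase 1 is the controlled entry step. Inside, acyl-CoA dehydrogenases, hydratases, hydroxyacyl dehydrogenases and thiolases shorten the chain in repeated rounds, and electron transfer flavoprotein passes the electrons to the respiratory chain. Peroxisomes run a parallel pathway for very long and branched chains, and nuclear receptors of the PPAR family with their coactivators control many of these genes. In T cells the pathway is best known for its part in memory and regulatory cells, and its use by donor T cells that attack a transplant recipient has been studied in graft-versus-host disease.

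RNA was sequenced from T cells of the spleen, 3 libraries in each of 3 groups, after magnetic enrichment and a sort for live cells positive for CD3 and for CD45.2. Allogeneic libraries came from CByJ.SJL(B6)-Ptprca/J recipients, which carry the major histocompatibility type H-2d and CD45.1, given 8 Gy in a split dose and 1000000 C57BL/6 T cells. Syngeneic libraries came from B6.SJL-Ptprca Pepcb/BoyJ recipients, which carry H-2b and CD45.1, given 9.5 Gy and 8500000 C57BL/6 T cells. Naive libraries came from healthy C57BL/6 mice without transplant. Both kinds of recipient also received 5000000 C57BL/6 marrow cells depleted of T cells, whose progeny carry CD45.2 as well, and their spleens were taken on day 7. Donors and recipients were females of 8 to 12 weeks, an age that also holds for the naive libraries. Cells of 2 to 4 recipients were pooled for each library after transplant. Recipient strain, radiation dose and T-cell dose changed together between the transplant groups, so that their parts in any difference between them cannot be told apart.

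Total counts ran from 103953932 to 176678189 in allogeneic libraries, from 107823729 to 130302320 in syngeneic ones and from 113382060 to 138312206 in naive ones. T-cell genes were abundant throughout: 10 T-cell markers summed to 5429 to 5856 CPM, which are counts scaled to an equal library total, in allogeneic, 3902 to 4824 CPM in syngeneic and 5183 to 5718 CPM in naive libraries. Markers of other cells were present after the sort. Erythroid markers summed to 53.0 to 126 CPM in allogeneic, 2429 to 6367 CPM in syngeneic and 28.5 to 29.6 CPM in naive libraries, and none of these 13 genes was at 0 in a whole group. Neutrophil markers, 9 in number, summed to 616 to 1112 CPM in allogeneic, 411 to 1374 CPM in syngeneic and 1.60 to 5.08 CPM in naive libraries. The 14 macrophage and monocyte markers summed to 90.5 to 180 CPM in allogeneic, 69.0 to 252 CPM in syngeneic and 8.70 to 10.2 CPM in naive libraries. Taken singly, 9 of them were lower and 2 higher in allogeneic than in syngeneic libraries by the test described below. Their median log2 fold change there was -1.90. The 5 NK cell markers summed to 40.5 to 44.3 CPM in allogeneic, 6.73 to 11.4 CPM in syngeneic and 9.28 to 13.3 CPM in naive libraries. They did not move together, with 3 higher and 2 lower in allogeneic than in syngeneic libraries by the test described below. Klrb1c had 26.9 to 34.2 CPM in allogeneic and 4.44 to 7.55 CPM in syngeneic libraries. Klra4 had 0 to 0.0226 CPM in allogeneic and 0.890 to 1.60 CPM in syngeneic libraries. The part of NK cells in the results was not tested. A pair of rows at a ribosomal RNA locus took 7.87 to 17.2% of allogeneic counts, 19.4 to 22.4% of syngeneic counts and 15.8 to 18.8% of naive counts.

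Summed over the 33 genes, fatty acid oxidation transcripts made up 1855, 1856 and 1912 CPM in the allogeneic libraries, 1205, 1249 and 1279 CPM in the syngeneic ones and 1233, 1190 and 1267 CPM in the naive ones. All 3 allogeneic libraries lay above the other 6, and syngeneic and naive libraries overlapped. Without the ribosomal RNA rows the sums were 2041 to 2241, 1554 to 1587 and 1466 to 1512 CPM in allogeneic, syngeneic and naive libraries, and the allogeneic libraries stayed above the rest. Of the 33 genes, 29 reached 10 CPM in at least 1 library, and Cpt1b and Ppara never reached 1 CPM. Per kilobase of exon, the most abundant transcripts in allogeneic libraries were Etfb at 76.0 ± 3.05, Acsl5 at 58.0 ± 2.36 and Acadl at 56.8 ± 3.00 CPM per kb (SD, n = 3). Acsl5 and Acadl did not differ beyond their spread. Syngeneic libraries were led by Acsl5 at 37.8 ± 1.17 and Etfb at 32.3 ± 3.08 CPM per kb, and naive ones by Acaa2 at 34.5 ± 2.68 and Acsl5 at 23.8 ± 1.13 CPM per kb (SD, n = 3). Below Acsl5 in naive libraries, Etfb, Acadvl and Acadl lay between 22.0 and 22.5 CPM per kb, closer together than their spread.

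Most genes of the list were higher in allogeneic than in syngeneic T cells by the standard scaling of libraries, edgeR's TMM. Of 32 genes tested, 20 were higher and 3 lower at an adjusted p under 0.05 in edgeR's quasi-likelihood test, 71.9% of the list, where 45.0% of all 19609 genes tested were called, 24.3% higher and 20.7% lower. The members' median log2 fold change was 0.47, against -0.02 over all genes. Changes of at least 2-fold were found for 4 members upwards and 3 downwards, against 7.82% and 11.6% of all genes. CPM of the groups did not overlap for 23 members, 20 of them higher, where 52.7% of all genes did not overlap, 27.4% higher and 25.3% lower. Ppara, with 0 to 6 counts in transplant libraries and 2 to 9 in naive ones, was the member below the filter on low counts.

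The median of the T-cell markers shifted by about as much in the same comparison. Of the 10 markers 7 were higher and 1 lower in allogeneic than in syngeneic libraries, with a median log2 fold change of 0.51, while all 13 erythroid markers were lower, with a median of -7.11. Cd4 had 446, 414 and 410 CPM in allogeneic against 223, 199.6 and 171 CPM in syngeneic libraries. Cd8a went the other way, with 319, 430 and 431 CPM in allogeneic against 657, 520 and 578 CPM in syngeneic libraries. The part of a different mix of CD4 and CD8 T cells in the members' values was not tested. Fewer T cells in a sorted sample and less T-cell RNA per cell cannot be told apart in these bulk libraries. When libraries were scaled to 5 genes of the T-cell receptor complex, a setting chosen after seeing the data, the median of all genes moved by -0.49, and 6 members were higher and 7 lower, with a member median of -0.03, where 1473 of the 19609 genes tested were higher and 8807 lower. The 6 that were higher under both scalings were Cpt1a, Slc25a20, Acadl, Acads, Hadh and Etfb, and Acsl1, Acsl3 and Ppargc1b were lower under both. Under the T-cell scaling, Cpt1a kept a log2 fold change of 1.22, Etfb of 0.76, Acads of 0.61, Acadl of 0.58, Slc25a20 of 0.51 and Hadh of 0.50 (edgeR adjusted p = 0.000126 to 0.00924). The other 14 members that were higher by the standard scaling were not called higher by this one. Calls given below are by the standard scaling unless another is named. Acsl5, Echs1 and Etfdh share 404, 142 and 278 exon bases with Zdhhc6, Paox and 4930579G24Rik on the opposite strand, and Acsl3 shares 244 with Utp14b on its own strand. Cpt1b, Etfb and Acad9 share 2744, 617 and 559 exon bases with Gm44502, Gm45233 and Gm43079 on their own strand. Reads of neighbours on the opposite strand may be mixed, since the strand setting of counting is unknown. No strand setting separates neighbours on the same strand.

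**Figure D1:**
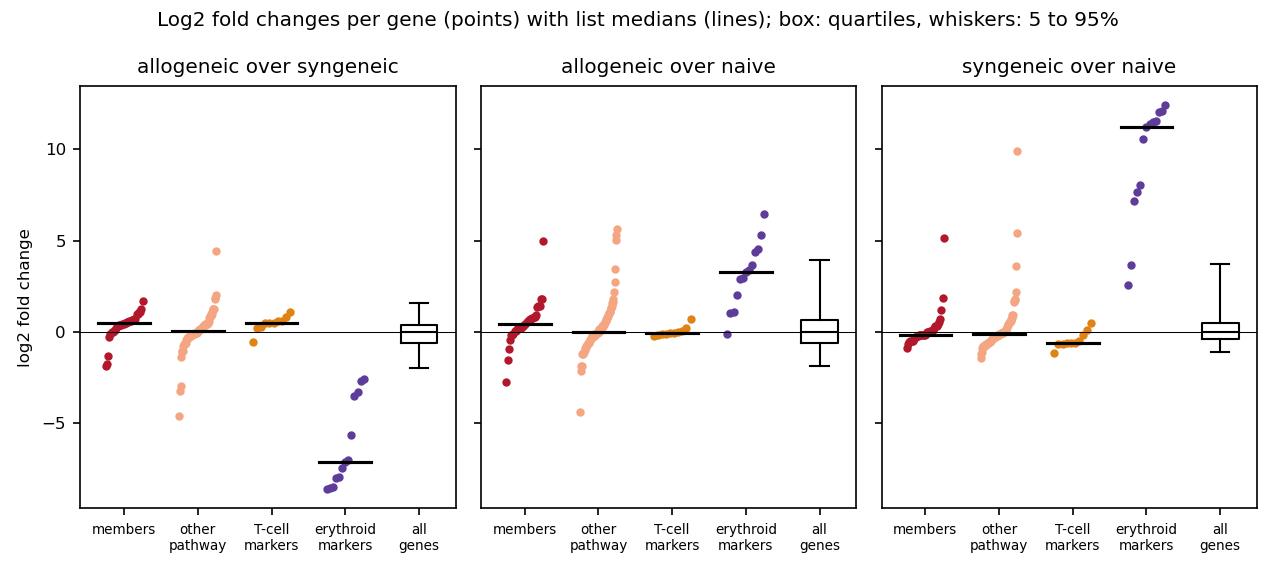
Log2 fold change per gene (points) with list medians (horizontal lines) for the fatty acid oxidation genes (members), other genes of fatty acid metabolism, T-cell markers and erythroid markers, with quartiles (box) and the 5 to 95% range (whiskers) of all genes tested, for allogeneic over syngeneic, allogeneic over naive and syngeneic over naive. The members' median of 0.47 in allogeneic over syngeneic lies beside the T-cell markers' 0.51, while in allogeneic over naive the members' median is 0.41 and the T-cell markers' is -0.05.

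Against naive T cells, 17 members were higher and 4 lower in allogeneic libraries by edgeR, 65.6% of those tested, where 57.7% of all genes were called, 31.8% higher and 25.9% lower. The median was 0.41 for members and -0.01 for all genes. Changes of at least 2-fold were found for 6 members upwards and 2 downwards, where 29.7% of all genes had one, 17.0% upwards and 12.7% downwards. CPM did not overlap for 17 members that were higher and 6 that were lower, against 65.1% of all genes, 32.5% higher and 32.6% lower. Here the T-cell markers did not shift as a list, with 1 of 10 higher, none lower and a median of -0.05. Scaling to the T-cell receptor genes moved the median of all genes by 0.13 and left all 21 of these calls in place, with a member median of 0.54.

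Syngeneic T cells differed less evenly from naive ones. In them 7 members were higher and 7 lower, 43.8% of those tested, against 41.9% of all genes, 22.4% higher and 19.5% lower, and the median was -0.14 for members and 0.01 for all genes. Only Acsl6, Acsl1 and Fabp5 were called at 2-fold or more, all upwards, and 0 members downwards, where 18.4% of all genes had such a change, 13.4% upwards and 4.95% downwards. CPM did not overlap for 8 members that were higher and 15 that were lower, against 56.5% of all genes, 25.4% higher and 31.1% lower. The T-cell markers had a median of -0.60, with 1 of 10 higher and 7 lower. Under the T-cell receptor scaling the median of all genes moved by 0.62, and 22 members were higher and 0 lower, with a member median of 0.47, where 10221 of the 19609 genes tested were higher and 552 lower. The test of only these 6 libraries gave 11 members lower in place of 7. All 3 comparisons share libraries and are given side by side for that reason.

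**Figure D2:**
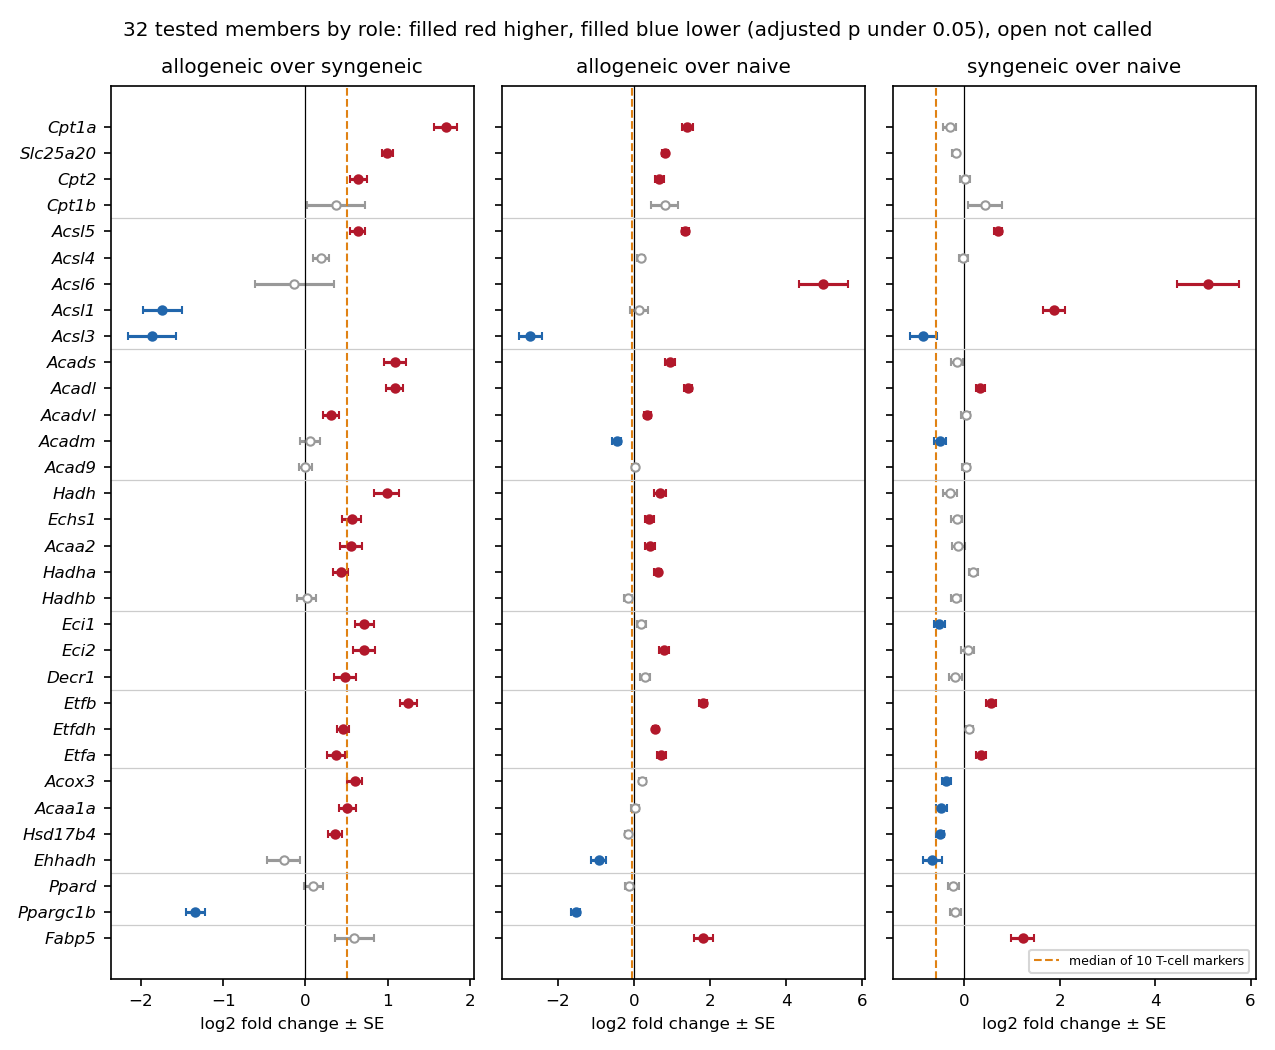
Log2 fold change with its SE for the 32 tested genes, by step of the pathway, in allogeneic over syngeneic, allogeneic over naive and syngeneic over naive libraries. Libraries are scaled by TMM. Filled red points are higher and filled blue points lower at an edgeR adjusted p under 0.05, open points were not called, and the dashed line is the median of the 10 T-cell markers. The left panel holds 20 red and 3 blue points and the right panel 7 of each.

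The carnitine shuttle held the largest rise of the list in allogeneic over syngeneic cells. Cpt1a, the carnitine palmitoyltransferase that sets the rate of entry into mitochondria, had 198, 259 and 277 CPM in allogeneic libraries, 72.9, 74.0 and 79.0 CPM in syngeneic ones and 112, 76.8 and 96.2 CPM in naive ones. Every allogeneic library lay above every other library, and syngeneic and naive libraries overlapped. The log2 fold change was 1.71 ± 0.14 (SE) over syngeneic cells and 1.40 ± 0.14 over naive cells (edgeR adjusted p = 2.81e-06 and 5.26e-06), and -0.30 ± 0.13 in syngeneic over naive cells (adjusted p = 0.0934). The Cpt1a difference between syngeneic and naive cells passed the test without naive replicate 2 (-0.46, adjusted p = 0.00811), with adjusted p of up to 0.382 without other single libraries.

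Slc25a20, the carrier that exchanges acylcarnitine for carnitine across the inner membrane, had 61.0, 65.9 and 66.5 CPM in allogeneic, 31.0, 34.5 and 32.4 CPM in syngeneic and 37.8, 40.5 and 35.5 CPM in naive libraries. No 2 groups overlapped, with syngeneic libraries lowest. It rose by 1.00 ± 0.07 over syngeneic and 0.82 ± 0.07 over naive cells on the log2 scale (edgeR adjusted p = 1.17e-06 and 2.16e-06), and was at -0.18 ± 0.07 in syngeneic over naive cells (adjusted p = 0.0655). Without allogeneic replicate 1 the last Slc25a20 comparison passed the test (adjusted p = 0.0470), with adjusted p of up to 0.204 without other single libraries. Under the T-cell receptor scaling Slc25a20 was instead called higher in syngeneic than in naive cells (0.44, edgeR adjusted p = 0.0163). Cpt2, which turns acylcarnitine back into acyl-CoA on the matrix side, had 17.1, 18.3 and 18.4 CPM in allogeneic, 10.0, 11.4 and 13.4 CPM in syngeneic and 11.8, 12.1 and 11.2 CPM in naive libraries. The allogeneic libraries stood apart from both other groups, which overlapped, by 0.65 ± 0.11 over syngeneic and 0.67 ± 0.11 over naive cells (edgeR adjusted p = 0.000541 and 0.000244). Cpt1b, the muscle form of the entry enzyme, stayed between 0.201 and 0.708 CPM in all 9 libraries and was not called in any comparison by the standard scaling, although allogeneic over naive cells passed the test without naive replicate 1 (1.21, edgeR adjusted p = 0.0219, and up to 0.251 without other libraries) and syngeneic over naive cells under the T-cell receptor scaling (1.06, adjusted p = 0.0490). Per kilobase of exon, Cpt1a made up 99.5 ± 0.116, 98.8 ± 0.197 and 99.3 ± 0.229% of the summed level of both forms in allogeneic, syngeneic and naive libraries (SD, n = 3).

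**Figure D3:**
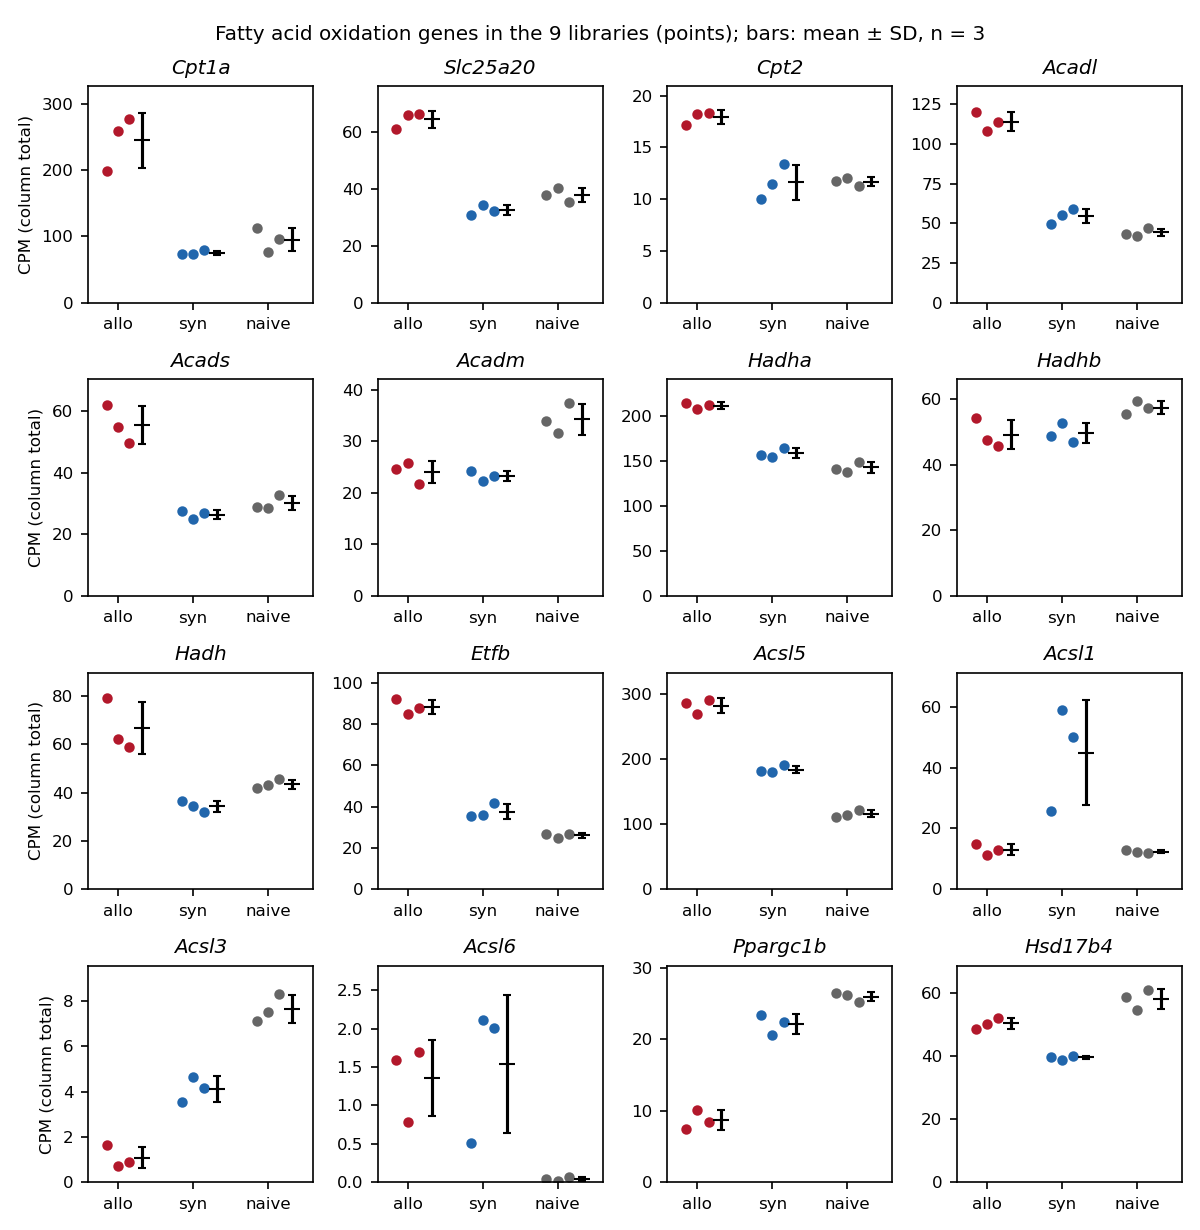
CPM of 16 fatty acid oxidation genes in each library (points), with mean and SD of the 3 libraries per group (bars), for allogeneic, syngeneic and naive T cells. Cpt1a lies at 198 to 277 CPM in allogeneic libraries against 72.9 to 112 CPM in the other 6, and Acsl1 stands out in the syngeneic libraries at 25.6 to 59.2 CPM.

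The sequence before the Cpt1a start is shown because Cpt1a had the largest rise of the list in allogeneic over syngeneic cells and is a known target of PPAR receptors. RefSeq promoter windows of GRCm38.p6, 250 bases before to 50 after a start, were found for 26 of the 33 genes in 29 windows. The stretch chr19:3323051-3323284 on the plus strand lies outside annotated exons. Its capitals mark the reverse complement of AGGTCA, the 6-letter motif of nuclear receptors, at -94 to -89 from the RefSeq start.
Cpt1a: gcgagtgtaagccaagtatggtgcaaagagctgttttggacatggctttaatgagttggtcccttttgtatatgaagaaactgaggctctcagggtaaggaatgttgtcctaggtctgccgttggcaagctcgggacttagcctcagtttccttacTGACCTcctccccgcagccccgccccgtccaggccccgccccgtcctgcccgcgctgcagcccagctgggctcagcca
AGGTCA was found on either strand in a window of 5 members, Acadm, Acadvl, Acsl6, Cpt1a and Echs1, of which Cpt1a, Acadvl and Echs1 were higher in allogeneic than in syngeneic cells and Acadm and Acsl6 were not called. Of all 32851 promoters in the table, 16.3% hold it. The longer TCAAGGTCA, which contains AGGTCA, was found for Acsl6 and in 0.423% of all promoters. The repeat AGGTCANAGGTCA, which contains AGGTCA 2 times, was in no member window and in 0.0396% of all promoters.

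The long-chain acyl-CoA synthetases, which activate fatty acids at different membranes, did not move together. Acsl5, found on mitochondria and endoplasmic reticulum, had 286, 269 and 291 CPM in allogeneic, 181, 179.8 and 190.2 CPM in syngeneic and 111, 114 and 122 CPM in naive libraries. The groups formed 3 separate steps. It rose by 0.64 ± 0.09 over syngeneic and 1.34 ± 0.09 over naive cells, and by 0.70 ± 0.09 in syngeneic over naive cells (edgeR adjusted p = 0.000186, 2.68e-07 and 9.37e-05).

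Acsl1 had 15.0, 11.2 and 13.01 CPM in allogeneic, 25.6, 59.2 and 50.2 CPM in syngeneic and 12.9, 12.4 and 12.0 CPM in naive libraries. All syngeneic libraries were above the rest, and allogeneic and naive libraries overlapped. It was lower in allogeneic than in syngeneic cells by -1.74 ± 0.24 and higher in syngeneic than in naive cells by 1.88 ± 0.24 (edgeR adjusted p = 0.000138 and 8.51e-05). Erythroid markers in syngeneic libraries 1 to 3 summed to 2429, 6367 and 5404 CPM and macrophage markers to 69.0, 252 and 240.0 CPM, in the same order of libraries as Acsl1, and their part in the Acsl1 values was not tested. Acsl3, an enzyme of endoplasmic reticulum and lipid droplets, had 1.64, 0.741 and 0.904 CPM in allogeneic, 3.54, 4.66 and 4.16 CPM in syngeneic and 7.13, 7.51 and 8.30 CPM in naive libraries. No 2 groups overlapped, with allogeneic libraries lowest. Its log2 fold change was -1.87 ± 0.29 over syngeneic and -2.73 ± 0.30 over naive cells (edgeR adjusted p = 0.000385 and 1.38e-05), and -0.86 ± 0.28 in syngeneic over naive cells (adjusted p = 0.0278). That last Acsl3 call was lost without any 1 of the naive libraries or without syngeneic replicate 1 or 3, with edgeR adjusted p of 0.00101 to 0.0855 over the 9 libraries left out in turn. Under the T-cell receptor scaling it was at -0.23 and not called (adjusted p = 0.522).

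Acsl6, known from red blood cells and brain, had 1.59, 0.787 and 1.69 CPM in allogeneic, 0.507, 2.11 and 2.00 CPM in syngeneic and 0.0434, 0.0176 and 0.0698 CPM in naive libraries. Transplant libraries overlapped each other and lay above all naive ones. It was higher than in naive cells by 4.98 ± 0.65 in allogeneic and 5.11 ± 0.65 in syngeneic cells (edgeR adjusted p = 5.40e-05 and 8.80e-05), with -0.13 ± 0.48 between the transplant groups (adjusted p = 0.842). The syngeneic library with the least Acsl6 was replicate 1, which also had the smallest sum of erythroid markers. Between the transplant groups Acsl6 overlapped, while erythroid markers summed to 53.0 to 126 CPM in allogeneic and 2429 to 6367 CPM in syngeneic libraries. The part of erythroid RNA in the Acsl6 values was not tested. Acsl4, which prefers polyunsaturated fatty acids, had 59.7, 57.2 and 65.8 CPM in allogeneic, 53.4, 57.4 and 50.6 CPM in syngeneic and 50.2, 58.0 and 59.5 CPM in naive libraries, overlapped between groups and was not called in any comparison by the standard scaling, while under the T-cell receptor scaling it was at 0.60 in syngeneic over naive cells (edgeR adjusted p = 0.00150).

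Per kilobase, these differences shifted the make-up of the family. Acsl5 held 81.8 ± 0.519, 71.2 ± 3.08 and 64.2 ± 1.08% of the summed level of the 5 synthetases in allogeneic, syngeneic and naive libraries (SD, n = 3). Acsl4 held 15.9 ± 0.593% in allogeneic, 18.8 ± 1.35% in syngeneic and 27.9 ± 1.27% in naive libraries. For Acsl1 the share was 1.75 ± 0.210% in allogeneic, 8.00 ± 2.84% in syngeneic and 3.20 ± 0.297% in naive libraries, and for Acsl3 it was 0.352 ± 0.148% in allogeneic, 1.78 ± 0.176% in syngeneic and 4.73 ± 0.121% in naive libraries. A share does not depend on how a library is scaled, while the part of RNA from other cells in these shares was not tested.

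**Figure D4:**
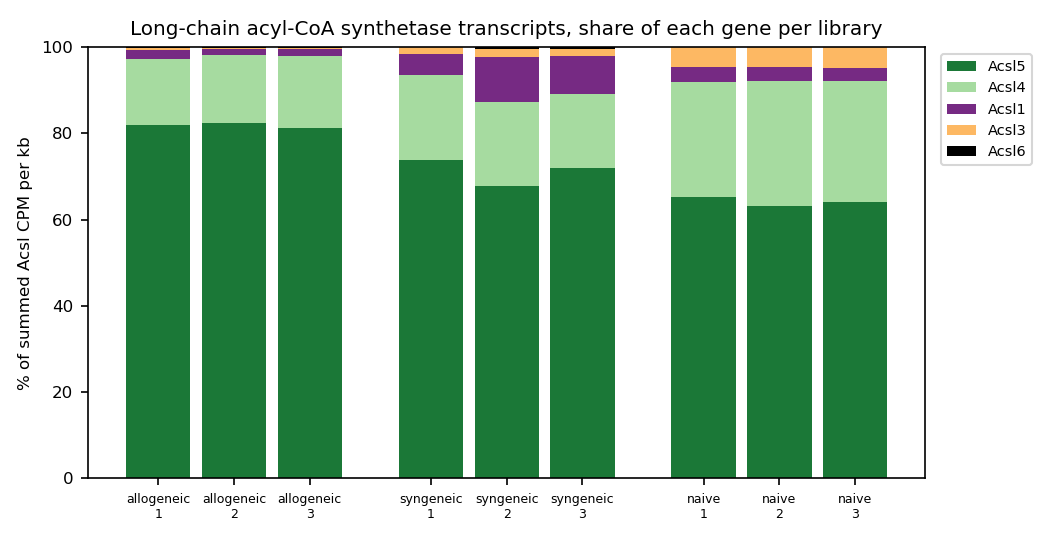
Share of each long-chain acyl-CoA synthetase in the summed CPM per kilobase of the 5 genes, in percent, for each allogeneic, syngeneic and naive library. Acsl5 takes 81.3 to 82.3% in allogeneic, 67.8 to 73.9% in syngeneic and 63.2 to 65.3% in naive libraries, and Acsl1 is widest in the syngeneic ones at 4.85 to 10.4%.

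Of the 5 acyl-CoA dehydrogenases, which take the first oxidation step at different chain lengths, 3 rose in allogeneic over syngeneic cells and none fell. This was by the standard scaling, where 24.3% of all genes were called higher and 20.7% lower. Under the T-cell receptor scaling Acadvl was at -0.17, not called, and Acadm and Acad9 were called lower. Acadl, the long-chain enzyme, had 120.1, 108 and 113 CPM in allogeneic, 49.8, 55.4 and 58.7 CPM in syngeneic and 43.5, 42.3 and 46.8 CPM in naive libraries. The 3 groups were separate, with allogeneic libraries far above. It rose by 1.08 ± 0.10 over syngeneic and 1.42 ± 0.10 over naive cells, and by 0.34 ± 0.10 in syngeneic over naive cells (edgeR adjusted p = 6.86e-06, 3.32e-07 and 0.0162). The smallest of these Acadl calls was lost without naive replicate 1 or 2 or syngeneic replicate 3, with adjusted p of 0.00446 to 0.0696 over the libraries left out in turn.

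Acads, the short-chain enzyme, had 62.1, 54.8 and 49.7 CPM in allogeneic, 27.6, 24.9 and 26.8 CPM in syngeneic and 29.0, 28.7 and 32.9 CPM in naive libraries. Allogeneic libraries were the highest and syngeneic the lowest, without overlap. Its log2 fold change was 1.09 ± 0.14 over syngeneic and 0.94 ± 0.14 over naive cells (edgeR adjusted p = 7.08e-05 and 0.000114). In syngeneic over naive cells Acads was at -0.15 ± 0.13 (adjusted p = 0.402). Under the T-cell receptor scaling it was called higher there (0.46, edgeR adjusted p = 0.00689). Acadvl, the very-long-chain enzyme, had 70.8, 74.3 and 76.1 CPM in allogeneic, 62.7, 55.7 and 61.5 CPM in syngeneic and 61.2, 56.7 and 62.7 CPM in naive libraries. Its allogeneic values lay above the others by a smaller step, with 0.31 ± 0.09 over syngeneic and 0.34 ± 0.09 over naive cells (edgeR adjusted p = 0.0181 and 0.00779). The Acadvl call over syngeneic cells was lost without allogeneic replicate 3 or syngeneic replicate 2 or 3, with adjusted p of 0.00593 to 0.0919 over the libraries left out in turn, and Acadvl shares 1151 exon bases with Dvl2 on the opposite strand.

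Acadm, the medium-chain enzyme, went the other way. It had 24.6, 25.8 and 21.6 CPM in allogeneic, 24.3, 22.4 and 23.3 CPM in syngeneic and 33.9, 31.5 and 37.4 CPM in naive libraries, so that both transplant groups overlapped and lay below every naive library. It fell by 0.46 ± 0.12 in allogeneic and by 0.52 ± 0.12 in syngeneic cells against naive cells on the log2 scale (edgeR adjusted p = 0.00767 and 0.00570), with 0.06 ± 0.12 between the transplant groups (adjusted p = 0.718). Under the T-cell receptor scaling the Acadm call in syngeneic over naive cells was lost (0.098, edgeR adjusted p = 0.504), that in allogeneic over naive cells held (-0.33, adjusted p = 0.0394), and allogeneic over syngeneic cells gave -0.42 (adjusted p = 0.0125). Acad9, an assembly factor of respiratory complex I with dehydrogenase activity, lay between 31.4 and 37.9 CPM in all 9 libraries and was not called in any comparison by the standard scaling. Under the T-cell receptor scaling Acad9 was at -0.50 in allogeneic over syngeneic and 0.66 in syngeneic over naive cells (edgeR adjusted p = 0.0155 and 0.00280).

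The later steps of a round hold the mitochondrial trifunctional protein, whose alpha subunit is encoded by Hadha and whose beta subunit, the long-chain thiolase, by Hadhb. Hadha had 215, 208 and 212 CPM in allogeneic, 157, 155 and 165 CPM in syngeneic and 142, 138 and 149.6 CPM in naive libraries. The groups did not overlap, and Hadha rose by 0.43 ± 0.09 over syngeneic and 0.62 ± 0.09 over naive cells (edgeR adjusted p = 0.00248 and 0.000118), with -0.062 over syngeneic cells under the T-cell receptor scaling. Hadhb had 54.3, 47.5 and 45.7 CPM in allogeneic, 48.8, 52.9 and 46.9 CPM in syngeneic and 55.5, 59.3 and 57.3 CPM in naive libraries. Transplant libraries overlapped and all lay below naive ones, and no Hadhb difference passed the test by the standard scaling, with 0.01 ± 0.11 in allogeneic over syngeneic and -0.16 ± 0.11 in allogeneic over naive cells (edgeR adjusted p = 0.928 and 0.238). Without allogeneic replicate 1, allogeneic over naive cells gave -0.30 for Hadhb (adjusted p = 0.0106), and single libraries left out in turn gave adjusted p of up to 0.517. Scaled by column totals alone, Hadhb was called in allogeneic over naive cells (-0.22, edgeR adjusted p = 0.0435), and in the test of 2 groups alone it was called in syngeneic over naive cells (-0.20, adjusted p = 0.0461). Under the T-cell receptor scaling Hadhb was at -0.48 in allogeneic over syngeneic and 0.44 in syngeneic over naive cells (edgeR adjusted p = 0.00949 and 0.0125).

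The ratio of Hadha to Hadhb, which does not depend on library scaling, was 2.99, 3.30 and 3.50 in allogeneic, 2.43, 2.22 and 2.65 in syngeneic and 1.93, 1.76 and 1.97 in naive libraries, computed from levels per kilobase. No 2 groups overlapped. Means were 3.26 ± 0.257, 2.43 ± 0.219 and 1.89 ± 0.112 in allogeneic, syngeneic and naive libraries (SD, n = 3). An exact 2-sided permutation test gave p = 0.1 for each pair of groups, which is the smallest value that 3 against 3 libraries allow. The part of RNA from other cells in this ratio was not tested.

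The stretch between the genes is shown because the subunits of this complex start from opposite strands of one short region and yet their ratio differed between groups. On chromosome 5 of GRCm38 the RefSeq start of Hadha is at 30154980 on the minus strand and that of Hadhb at 30155253 on the plus strand, with 272 bases between them. Of these, chr5:30155163-30155247, given on the plus strand, lies outside the exons of both genes in GENCODE M21. It holds no AGGTCA on either strand, so that no base is in capitals.
Hadha-Hadhb: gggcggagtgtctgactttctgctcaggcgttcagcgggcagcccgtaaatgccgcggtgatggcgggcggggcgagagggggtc

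**Figure D5:**
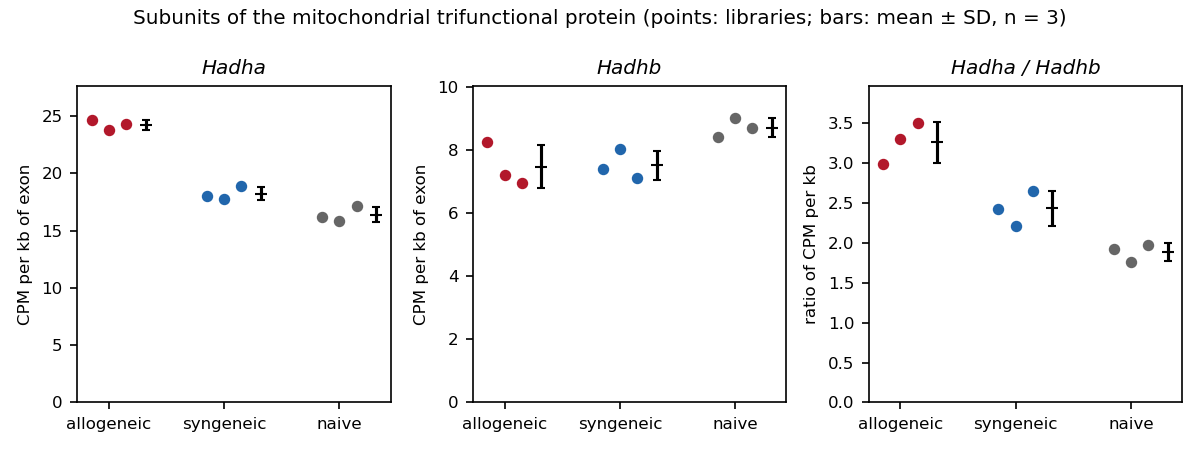
Level of Hadha and of Hadhb in CPM per kilobase of exon and their ratio in each allogeneic, syngeneic and naive library (points), with mean and SD of 3 libraries (bars). Hadha is highest in allogeneic libraries while Hadhb is not, and the ratio lies at 2.99 to 3.50 in allogeneic, 2.22 to 2.65 in syngeneic and 1.76 to 1.97 in naive libraries.

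Hadh, the hydroxyacyl dehydrogenase for shorter chains, had 79.1, 62.0 and 59.0 CPM in allogeneic, 36.6, 34.2 and 31.8 CPM in syngeneic and 41.8, 43.1 and 45.5 CPM in naive libraries, without overlap. It rose by 0.99 ± 0.15 over syngeneic and 0.69 ± 0.15 over naive cells (edgeR adjusted p = 0.000312 and 0.00217). In syngeneic over naive cells Hadh was at -0.30 ± 0.15 (adjusted p = 0.129), which passed the test without allogeneic replicate 1 (adjusted p = 0.0239, and up to 0.339 without other libraries). Acaa2, the mitochondrial thiolase, and Echs1, the short-chain hydratase, were each higher by 0.56 over syngeneic cells, and by 0.43 and 0.40 over naive cells. Against naive cells the Acaa2 call was lost without allogeneic replicate 1 or naive replicate 2 and the Echs1 call without naive replicate 1 or 2, with edgeR adjusted p of up to 0.0835 for Acaa2 and 0.0524 for Echs1.

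All 3 genes for unsaturated chains rose over syngeneic cells by the standard scaling, where 24.3% of all genes were called higher. None of the 3 was called over syngeneic cells under the T-cell receptor scaling, where Decr1 was at -0.012. Eci1 and Eci2, the enoyl-CoA isomerases, rose by 0.72 ± 0.12 and 0.71 ± 0.14, and Decr1, the dienoyl-CoA reductase, by 0.48 ± 0.13 (edgeR adjusted p = 0.000498, 0.00164 and 0.0126). Eci1 had 17.4, 16.3 and 20.3 CPM in allogeneic, 10.99, 10.9 and 11.3 CPM in syngeneic and 15.3, 15.8 and 17.8 CPM in naive libraries, so that the syngeneic group stood apart below the others, with -0.52 ± 0.12 against naive cells (edgeR adjusted p = 0.00378) and 0.094 under the T-cell receptor scaling. Eci2 was also higher than in naive cells, by 0.78 ± 0.14 (edgeR adjusted p = 0.000531). The Decr1 call was lost without allogeneic replicate 3 or syngeneic replicate 2, with adjusted p of 0.00253 to 0.0765 over the libraries left out in turn. Against naive cells Decr1 was at 0.29 ± 0.13 (edgeR adjusted p = 0.0790), which passed the test without allogeneic replicate 2 (0.43, adjusted p = 0.0117, and up to 0.434 without other libraries).

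Electron transfer genes rose in allogeneic cells against both other groups, 3 of 3 by the standard scaling. Of all genes, 24.3% were called higher over syngeneic and 31.8% over naive cells. Under the T-cell receptor scaling Etfa and Etfdh were at -0.13 and -0.042 over syngeneic cells. Etfb, the beta subunit of electron transfer flavoprotein, had 92.2, 85.2 and 87.9 CPM in allogeneic, 35.3, 35.8 and 41.8 CPM in syngeneic and 26.6, 24.9 and 27.0 CPM in naive libraries. The 3 groups were separate. Etfb rose by 1.25 ± 0.10 over syngeneic and 1.81 ± 0.10 over naive cells, and by 0.56 ± 0.10 in syngeneic over naive cells (edgeR adjusted p = 2.62e-06, 5.65e-08 and 0.000949). Its partner subunit Etfa moved less, by 0.37 ± 0.11 over syngeneic and 0.72 ± 0.11 over naive cells (edgeR adjusted p = 0.0192 and 0.000215), and Etfdh, the dehydrogenase that passes the electrons on to ubiquinone, by 0.46 ± 0.08 and 0.56 ± 0.08 (adjusted p = 0.000589 and 7.42e-05). The Etfa call over syngeneic cells was lost without allogeneic replicate 3 or syngeneic replicate 2, with adjusted p of 0.00431 to 0.0714 over the libraries left out in turn. In syngeneic over naive cells Etfa was at 0.35 ± 0.11 (edgeR adjusted p = 0.0270), a call that was lost in 7 of 9 fits with 1 library left out.

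By the standard scaling all 4 genes filed here as peroxisomal were lower in syngeneic than in naive cells, where 19.5% of all genes were called lower. The T-cell markers had a median of -0.60 in the same comparison. Under the T-cell receptor scaling Ehhadh kept its direction, the other 3 turned positive and none of the 4 was called. The count depends on the filing. Eci2, filed with the isomerases, was at 0.07 ± 0.14 in syngeneic over naive cells by the standard scaling (edgeR adjusted p = 0.727). Acox3, an oxidase of branched chains, had 57.05, 82.0 and 76.7 CPM in allogeneic, 46.4, 48.8 and 48.0 CPM in syngeneic and 67.0, 61.6 and 62.8 CPM in naive libraries. Syngeneic libraries lay below all others, and allogeneic and naive ones overlapped. Acox3 was higher in allogeneic than in syngeneic cells by 0.60 ± 0.09 and lower in syngeneic than in naive cells by -0.38 ± 0.09, with 0.22 ± 0.09 in allogeneic over naive cells (edgeR adjusted p = 0.000410, 0.00702 and 0.0697). The last Acox3 comparison passed the test without allogeneic replicate 1 (0.31, adjusted p = 0.00757), with adjusted p of up to 0.294 without other single libraries.

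Hsd17b4, the second enzyme of the peroxisomal round, had 48.7, 50.2 and 52.2 CPM in allogeneic, 39.9, 38.9 and 40.0 CPM in syngeneic and 58.7, 54.8 and 60.9 CPM in naive libraries, with no overlap between groups. Its log2 fold change was 0.36 ± 0.08 in allogeneic over syngeneic and -0.52 ± 0.08 in syngeneic over naive cells (edgeR adjusted p = 0.00504 and 0.000525), against -0.12 and 0.10 under the T-cell receptor scaling. Acaa1a, a peroxisomal thiolase, followed with 0.51 ± 0.11 and -0.48 ± 0.11 in these comparisons (edgeR adjusted p = 0.00267 and 0.00402). Acaa1a has a close copy, Acaa1b, and shares 290 exon bases with Myd88 on the opposite strand, so its counts are less certain. Ehhadh, the bifunctional enzyme of the straight-chain branch, had 8.00, 6.28 and 5.26 CPM in allogeneic, 8.68, 8.36 and 6.86 CPM in syngeneic and 12.9, 12.4 and 13.8 CPM in naive libraries. Transplant libraries overlapped below the naive ones, with -0.93 ± 0.20 in allogeneic and -0.67 ± 0.20 in syngeneic over naive cells (edgeR adjusted p = 0.00179 and 0.0175). The syngeneic Ehhadh call was lost without syngeneic replicate 3 or naive replicate 3, with adjusted p of 0.00381 to 0.0789, with single libraries left out. In allogeneic over syngeneic cells Ehhadh was at -0.26 ± 0.20 (adjusted p = 0.294), which passed the test without allogeneic replicate 1 (-0.51, adjusted p = 0.0329, and up to 0.602 without other libraries) and under the T-cell receptor scaling (-0.75, adjusted p = 0.00601).

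Of the 3 regulators among the 33 genes, Ppargc1b and Ppard were tested, and neither was called higher in allogeneic cells. Ppara was below the filter on low counts and could not be called. Of all genes, 24.3% were called higher over syngeneic and 31.8% over naive cells. Ppargc1b, a coactivator of nuclear receptors that promotes mitochondrial genes, had 7.41, 10.2 and 8.51 CPM in allogeneic, 23.4, 20.6 and 22.4 CPM in syngeneic and 26.5, 26.2 and 25.2 CPM in naive libraries. Allogeneic libraries were all far below the rest. Ppargc1b fell by 1.34 ± 0.12 against syngeneic and by 1.53 ± 0.12 against naive cells on the log2 scale (edgeR adjusted p = 4.95e-06 and 7.21e-07), with -0.19 ± 0.11 in syngeneic over naive cells (adjusted p = 0.215), a value of 0.42 under the T-cell receptor scaling (adjusted p = 0.0271). Among other regulators of the pathway, chosen after their values were seen, Pparg, Rxra and Esrra, which encode nuclear receptors, rose by 1.83 ± 0.35, 0.95 ± 0.14 and 0.47 ± 0.10 in allogeneic over syngeneic cells (edgeR adjusted p = 0.00147, 0.000235 and 0.00271). They do not stand for the regulators as a set. They come from a list in which 23 of 66 tested genes were higher and 14 lower, and its regulator Ppargc1a, described below, was called lower. Under the T-cell receptor scaling Pparg was at 1.28 and Rxra at 0.47, both called (edgeR adjusted p = 0.0226 and 0.0260), and Esrra at -0.0087, not called (adjusted p = 0.957). The summed NK cell and erythroid markers given above did not overlap between the transplant groups, although the 5 NK cell markers did not move together. The part of such cells in these values was not tested.

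Ppard, a broadly expressed receptor of the PPAR family, had 18.5, 28.4 and 27.9 CPM in allogeneic, 21.6, 23.2 and 25.3 CPM in syngeneic and 29.2, 28.7 and 26.5 CPM in naive libraries, and was called in no comparison. In syngeneic over naive cells Ppard was at -0.23 ± 0.12 (edgeR adjusted p = 0.140), which passed the test without allogeneic replicate 1 (adjusted p = 0.0300, and up to 0.315 without other libraries). Ppara, the receptor that drives the pathway in liver, had 2, 6 and 1 counts in allogeneic, 2, 0 and 0 counts in syngeneic and 2, 5 and 9 counts in naive libraries, too few for a test. Fabp5, a carrier of fatty acids in the cytosol, had 11.9, 7.10 and 7.85 CPM in allogeneic, 4.69, 6.36 and 7.30 CPM in syngeneic and 3.04, 2.43 and 2.52 CPM in naive libraries. Both transplant groups lay above naive libraries and overlapped each other. Fabp5 rose by 1.82 ± 0.25 in allogeneic and 1.22 ± 0.25 in syngeneic over naive cells (edgeR adjusted p = 7.84e-05 and 0.00204). Between the transplant groups it was at 0.60 ± 0.24 (adjusted p = 0.0638), which passed the test without allogeneic replicate 2 (0.77, adjusted p = 0.0309), with no filter on low counts (adjusted p = 0.0488) and in DESeq2 (adjusted p = 0.0298), with edgeR adjusted p of up to 0.291 without other single libraries.

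Set by pattern over the 3 comparisons with the standard scaling, 11 members were higher in allogeneic cells than in both other groups with no call between syngeneic and naive cells: Cpt1a, Cpt2, Slc25a20, Acads, Acadvl, Hadha, Hadh, Acaa2, Echs1, Eci2 and Etfdh. Another 4, Acadl, Acsl5, Etfa and Etfb, were called higher in each comparison. Acaa1a, Acox3, Eci1 and Hsd17b4 were called lower in syngeneic cells than in both other groups, with no call between allogeneic and naive cells. Under the T-cell receptor scaling they were at 0.14, 0.24, 0.094 and 0.10 in syngeneic over naive cells, none called. The share of all genes with each pattern was not computed. The 5 members with no call were Acad9, Acsl4, Cpt1b, Hadhb and Ppard.

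Other genes of fatty acid metabolism, 72 genes outside the list, were more mixed. Of 66 tested, 23 were higher and 14 lower in allogeneic than in syngeneic cells, 25 and 20 in allogeneic than in naive cells, and 14 and 25 in syngeneic than in naive cells, with medians of 0.06, -0.02 and -0.13. These are 56.1, 68.2 and 59.1% of the genes tested, against 45.0, 57.7 and 41.9% of all genes.

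The largest changes there in allogeneic over syngeneic cells included Acsbg1, a synthetase of the bubblegum family. It had 51.2, 79.9 and 63.0 CPM in allogeneic, 18.6, 18.0 and 18.1 CPM in syngeneic and 18.8, 19.5 and 19.7 CPM in naive libraries, and its log2 fold change over syngeneic cells was 1.83 ± 0.12 (edgeR adjusted p = 6.50e-07). Acaa1b and Acot1, whose reads can be confused with those of the close copies Acaa1a and Acot2, rose by 4.41 ± 0.69 and 2.03 ± 0.66 at under 1 CPM in every library (adjusted p = 0.000401 and 0.0266). Downwards, Cd36, a fatty acid receptor of macrophages and red cell precursors among others, had 0.449, 0.504 and 0.385 CPM in allogeneic, 5.71, 17.2 and 10.6 CPM in syngeneic and 0 to 0.026 CPM in naive libraries. Mgll, which splits monoacylglycerol, had 3.43, 1.67 and 1.55 CPM in allogeneic, 7.01, 30.6 and 27.2 CPM in syngeneic and 0.376 to 0.602 CPM in naive libraries. Their log2 fold changes in allogeneic over syngeneic cells were -4.60 ± 0.40 and -3.21 ± 0.50 (edgeR adjusted p = 5.05e-06 and 0.000368). Both were lowest, among syngeneic libraries, in replicate 1, where the erythroid and macrophage sums were also lowest, and the part of those cells in the values was not tested. Ppargc1a, the better known relative of Ppargc1b, had 0 to 4 counts in allogeneic, 6 to 17 in syngeneic and 24 to 44 in naive libraries, with -2.96 ± 0.74 in allogeneic over syngeneic cells (edgeR adjusted p = 0.00724).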

How the data were processed

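Raw counts of reads per gene were deposited by the authors as a single table. Per the submitters' processing notes, the build was GRCm38 and the tools were HTSeq 0.6.1, TopHat2 2.0.13, Bowtie2 2.2.1 and FastQC 0.11.3. The annotation release and the strand setting were not given in the sources used here. Libraries were stranded and depleted of ribosomal RNA, per the labels' protocols. A strain tag that names the syngeneic recipient strain for all 9 libraries contradicts the protocols and was not used.

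From these counts, CPM were computed by column total and, to compare genes, divided by the union of exon bases in GENCODE M21, which matched 29014 identifiers. Genes passing filterByExpr by group, 19609 of them, were scaled by TMM and tested in 1 edgeR 4.0.16 quasi-likelihood model of all 9 libraries with group as its term (glmQLFit, glmQLFTest). A call is a Benjamini-Hochberg adjusted p under 0.05 over all genes tested, and SE is the log2 fold change divided by the square root of F. The steps were tested on simulated data. Alternatives used R 4.3.3, limma 3.58.1 and DESeq2 1.42.0. No replicates were alike within sampling noise. Naive libraries have no stated number of mice, and p-values measure the spread between libraries. The members, the gene lists and the rule for genes named (all members, with chosen ones and the 3 largest called changes each way in full, and the 3 largest each way among other pathway genes) were chosen with earlier results of these data known.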

Additional observations from a re-analysis of the deposited data

Results flagged for a closer look

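For 10 of the 32 tested members the allogeneic and the syngeneic cells lay on opposite sides of the naive cells. The difference between the transplant groups itself also passed the test, which is what marks them for a closer look. The share of all genes that meet this rule was not computed, and 45.0% of all genes were called between the transplant groups. How unusual 10 members are is therefore not known. The log2 fold change in allogeneic over syngeneic cells was 1.71 for Cpt1a, 1.09 for Acads, 1.00 for Slc25a20, 0.99 for Hadh, 0.72 for Eci1, 0.60 for Acox3, 0.56 for Acaa2, 0.56 for Echs1, 0.51 for Acaa1a and 0.48 for Decr1, with edgeR adjusted p of 1.17e-06 to 0.0126. In allogeneic over naive cells Cpt1a was at 1.40, Acads at 0.94, Slc25a20 at 0.82, Hadh at 0.69, Acaa2 at 0.43 and Echs1 at 0.40, and these 6 changes were called. In syngeneic over naive cells the same genes were at -0.30, -0.15, -0.18, -0.30, -0.13 and -0.16, and none of these was called. For Eci1, Acox3 and Acaa1a the values were 0.19, 0.22 and 0.03 in allogeneic over naive cells, not called, and -0.52, -0.38 and -0.48 in syngeneic over naive cells, called. The value of 0.03 for Acaa1a in allogeneic over naive cells turned negative with column totals alone (-0.010), with a minimum of 1 CPM in 3 libraries (-0.0080), without naive replicate 2 (-0.046) and without allogeneic replicate 3 (-0.074), so its side of naive cells is not settled. Decr1 was at 0.29 in allogeneic and -0.19 in syngeneic over naive cells, with neither called. Under scaling to T-cell receptor genes all 10 syngeneic values turned positive, and Cpt1a, Acads, Slc25a20 and Hadh stayed called between the transplant groups. By this scaling Acaa2 (0.48), Acads (0.46), Echs1 (0.46), Slc25a20 (0.44) and Decr1 (0.43) were called higher in syngeneic than in naive cells (edgeR adjusted p = 0.00292 to 0.0393). Cpt1a, Hadh, Eci1, Acox3 and Acaa1a were not called there.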

How the results depend on the processing

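Of 1821 recomputed member results, 1684 kept direction and call, 38 lost and 31 gained a call, and 68 changed sign. None of the 39 sign changes under 18 other settings (another tool, filter or scaling, or 1 library fewer) befell a called member result. With the replicate number as a block, members called stayed at 20 higher and 3 lower, 17 and 4, and 7 and 7 in allogeneic over syngeneic, allogeneic over naive and syngeneic over naive cells, and no member call changed. Deviations of libraries with the same number correlated at -0.118 to 0.265, not over 0.1 in every pair, so the numbers were not taken to pair libraries. Leaving out 1 library at a time gave 17 to 21 members higher and 3 to 4 lower in allogeneic over syngeneic, 15 to 18 and 4 to 5 in allogeneic over naive, and 5 to 7 and 5 to 10 in syngeneic over naive cells, whose member median ran from -0.18 to -0.072 (-0.072 without naive replicate 3). Fitting only the 2 groups compared gave 11 members lower in syngeneic over naive cells. The cause was not tested.

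Uncalled values near 0 changed sign as follows, with the range over libraries left out. In allogeneic over syngeneic cells these were Acad9 (-0.069 to 0.045), Acadm (-0.016 to 0.14), Acsl6 (-0.53 to 0.17) and Hadhb (-0.13 to 0.074), in allogeneic over naive cells Acaa1a (-0.074 to 0.12), Acad9 (-0.066 to 0.078) and Acsl1 (-0.041 to 0.27), and in syngeneic over naive cells Acadvl (-0.049 to 0.098), Acsl4 (-0.090 to 0.047) and Cpt2 (-0.069 to 0.079). With column totals alone, Acaa1a was at -0.010 and Acad9 at -0.017 in allogeneic over naive cells, Acad9 at -0.015 and Hadhb at -0.0097 in allogeneic over syngeneic cells, and Acad9 at -0.0021, Acadvl at -0.0063 and Cpt2 at -0.011 in syngeneic over naive cells. With a minimum of 1 CPM in 3 libraries, Acaa1a was at -0.0080 and Acad9 at -0.010 in allogeneic over naive, Acad9 at -0.065, Acadm at -0.0049 and Hadhb at -0.052 in allogeneic over syngeneic, and Acsl4 at 0.0027 in syngeneic over naive cells. In allogeneic over syngeneic cells Acad9 was at -0.0036 with DESeq2 size factors, -0.0031 in limma-voom, -0.015 without the ribosomal RNA rows and -0.0045 with the 2 groups alone, and Hadhb at -0.00026 in limma-voom and -0.0030 without the ribosomal RNA rows. Cpt2 was at -0.0012 in syngeneic over naive cells with these groups alone.

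The alternative that moved most was the scaling to 5 T-cell receptor complex genes, chosen after seeing the data. It lowers or raises all genes of a comparison alike by construction. All genes called then numbered 1473 higher and 8807 lower in allogeneic over syngeneic cells, 3382 lower in allogeneic over naive, and 10221 higher and 552 lower in syngeneic over naive cells, and of the calls 14.3, 65.8 and 94.9% were higher, against 54.0, 55.1 and 53.4%. Members called were 6 higher and 7 lower in allogeneic over syngeneic cells (median -0.027) and 22 and 0 in syngeneic over naive cells (median 0.47), and the median in allogeneic over naive cells was 0.54. Signs turned in allogeneic over syngeneic cells for Acad9 (-0.50), Acadm (-0.42), Acadvl (-0.17), Acsl4 (-0.30), Cpt1b (-0.12), Decr1 (-0.012), Etfa (-0.13), Etfdh (-0.042), Hadha (-0.062), Hadhb (-0.48), Hsd17b4 (-0.12) and Ppard (-0.39). In syngeneic over naive cells they turned for Acaa1a (0.14), Acaa2 (0.48), Acadm (0.098), Acads (0.46), Acox3 (0.24), Acsl4 (0.60), Cpt1a (0.32), Decr1 (0.43), Echs1 (0.46), Eci1 (0.094), Hadh (0.30), Hadhb (0.44), Hsd17b4 (0.10), Ppard (0.39), Ppargc1b (0.42) and Slc25a20 (0.44), and in allogeneic over naive cells for Ppard (0.0020). Depth limits Ppara, Cpt1b and Acsl6 most, whose CPM stayed under 3 in every library.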
